A study of Mus musculus with 8 samples.

Results

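The 10 genes described here were grouped as those through which a cell can address immune cells. They are the genes of the surface proteins Cd274, Cd47, Pvr and Tnfsf10, the paralogs Sectm1a and Sectm1b, the chemokine genes Cxcl9, Cxcl10 and Cxcl11, and the gene of the tryptophan-degrading enzyme Ido1. RefSeq gives mouse Cxcl11 as a transcribed pseudogene. All 10 were chosen by name with the difference between the genotypes in these arrays already known, so that difference is given for them as a description, with no test. Array probes were assigned to them through the RefSeq accession of each probe. Of the 10 genes, 9 had a probe (11 probes in all), out of 21368 gene symbols with a probe on the array. Cxcl11 had none and is not analysed further. The filter on dim probes, which asks for a signal well above background on at least 4 of 8 arrays, kept 8 of the 9, and Ido1 fell below it.

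PD-L1, the product of Cd274, binds PD-1 on T cells and restrains them. CD47 binds SIRPα on phagocytes and inhibits engulfment, and the poliovirus receptor PVR is bound by the activating receptor DNAM-1 and the inhibitory receptor TIGIT on NK cells and T cells. TRAIL, the product of Tnfsf10, triggers apoptosis through death receptors, while CXCL9 and CXCL10 draw in T cells and NK cells that carry CXCR3. Many of these genes are inducible by interferons, and IRF2 binds the same interferon response elements as IRF1.

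The study sorted intestinal stem cells with a high Lgr5 signal and measured RNA of 8 samples on Agilent 1-colour arrays, 4 per group. Control mice had the genotype Irf2fl/fl:Lgr5-EGFP-Ires-CreERT2, and the mice labelled Irf2_AhcKO had Irf2fl/fl:AhCre:Lgr5-EGFP-Ires-CreERT2, so that both groups share the floxed Irf2 gene and the Lgr5 knock-in, which itself carries an inducible recombinase. Both groups were given β-naphthoflavone, which switches on the xenobiotic-inducible promoter of Ah-Cre, on 5 consecutive days, and cells were taken 1 month later. The labels used here give no age. The scanner data of control replicates 3 and 4 carry names that mention Ah-Cre as well, and whether those mice had it is not settled. Both lie on slide 2, so the differences within slide 1 are the values without them.

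The design speaks of 4 mice per genotype and also of 2 biological replicates, and p-values therefore measure the spread between these samples, which may in part be technical. Slide 1 held replicates 1 and 2 of both groups and slide 2 held replicates 3 and 4. The share of spots well above background was 61.4% to 69.8% per array, with 0 saturated spots. Levels are log2 intensities relative to the 75th percentile of their own array, so a level of 0 lies at that percentile, and they are compared between arrays for 1 probe but not between probes. The single Irf2 probe read 0.99, 0.55, 0.37 and 0.64 in control replicates 1 to 4 and 1.12, 1.1, 0.70 and 0.73 in Irf2_AhcKO replicates 1 to 4. Irf2 was thus not lower in Irf2_AhcKO (log2 difference 0.27 with SE 0.12, adjusted p = 0.429 by limma). Where this probe lies relative to the deletion is not known here, and it may check nothing. Taken at face value the probe goes against the label, so each direction that follows is between arrays labelled Irf2_AhcKO and arrays labelled control.

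The labelled cell type was checked on its markers. Of 12 Lgr5 stem cell markers 11 were measured, Lgr5 on all 8 arrays, with a median log2 difference of -0.01 and none at an unadjusted limma p below 0.05. All 7 pan-epithelial markers were measured, with a median of -0.15 and 2 lower without adjustment. The value of 1 probe stood apart: sucrase-isomaltase, an enterocyte gene (Sis), read 10.42 in control replicate 4, while the 7 remaining arrays spanned -2.62 to -0.79. Other enterocyte genes were not high on that array. Apoa1 (-1.63), Apoa4 (-0.59) and Lct (-4.72) had their lowest control value there, and Alpi, Fabp1, Fabp2 and Anpep lay within the range of the other controls. Without control replicate 4 the log2 differences of the members were 3.03 (Cd274), 1.42 (Sectm1a), 1.39 (Sectm1b), 0.96 (Tnfsf10), 0.10 (Cd47), -0.16 (Pvr), 0.37 (Cxcl9) and 1.50 (Cxcl10). In sorted bulk samples, fewer cells that express a gene and less RNA per cell cannot be told apart.

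Of the 8 members kept by the filter, 7 had a positive log2 difference, where 49.5% of the 25403 features tested did. The groups did not overlap, with every Irf2_AhcKO array above every control array, in Cd274, Sectm1a, Sectm1b and Tnfsf10, and 1.74% of all features behaved that way. These shares describe the choice of the members as much as the cells, and nothing is read from them. The median over the 8 was 1.15, against -0.002 over all features, and 4 of the 8 had a log2 difference above 1. With normexp background correction, an alternative whose offset draws dim signals together, the median was 0.43 and 1 of the 8 (Sectm1b) was above 1. Cd274 passed the filter through its Irf2_AhcKO arrays alone and Cxcl10 through 3 Irf2_AhcKO arrays and 1 control array, so their being kept depended on the group in which they were high.

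**Figure D1:**
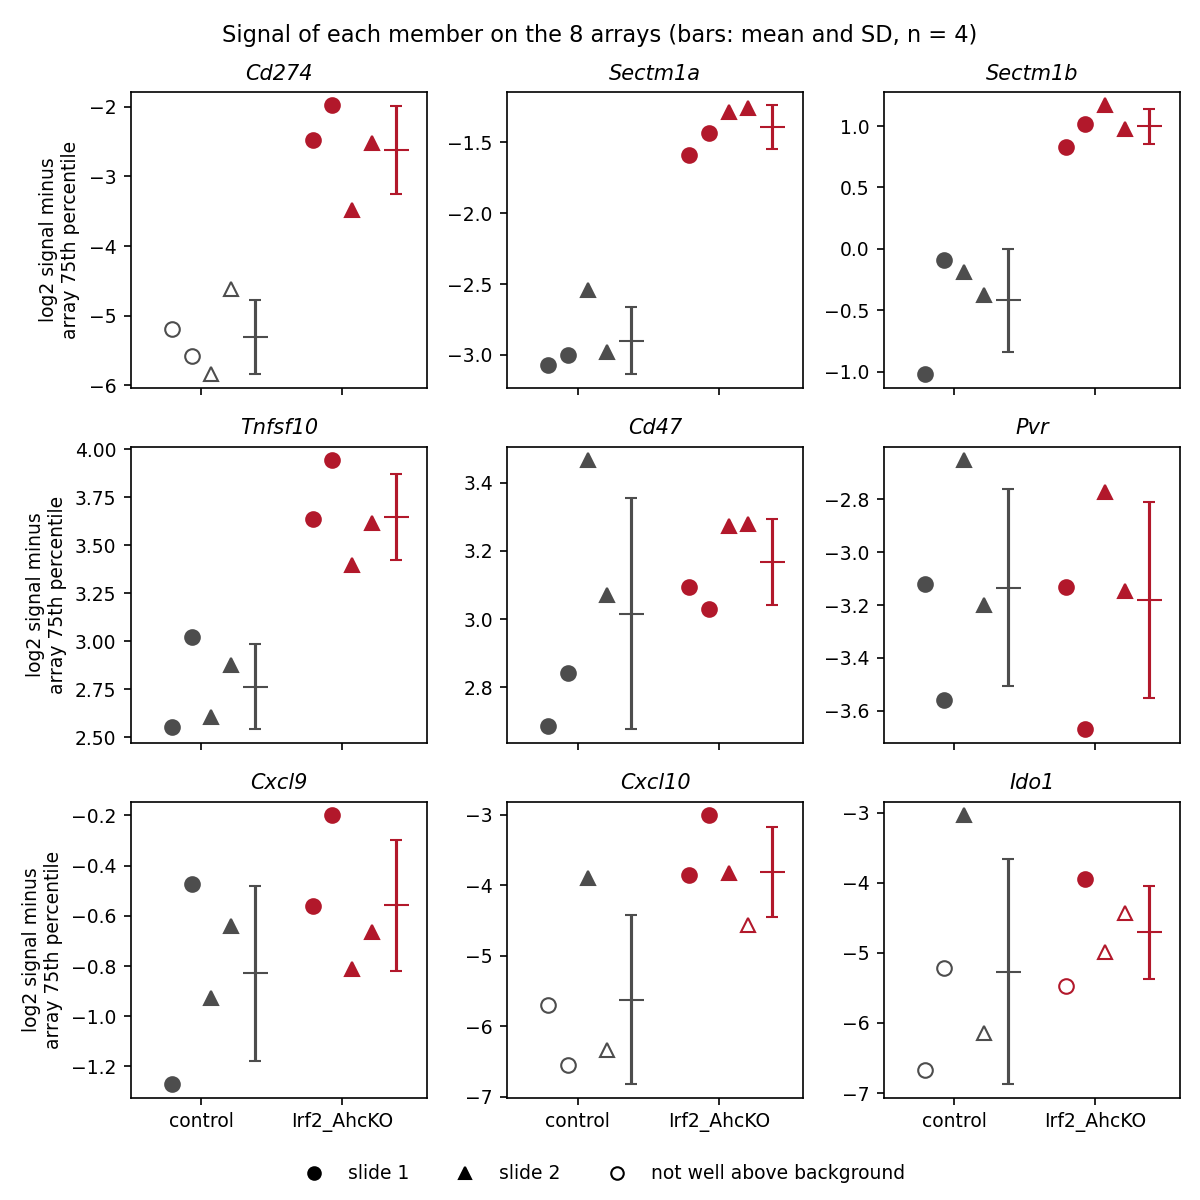
Log2 intensity relative to the array's 75th percentile (vertical axes) in the 4 control and 4 Irf2_AhcKO arrays, with 1 panel for each of the 9 genes with a probe. Circles are slide 1, triangles slide 2, open symbols are arrays on which the probe was not well above background, and bars give the mean and SD. The groups are apart in Cd274, Sectm1a, Sectm1b and Tnfsf10, while Cd47, Pvr, Cxcl9, Cxcl10 and Ido1 overlap.

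Cd274 had the widest gap in processed signal. In control replicates 1 to 4 it read -5.19, -5.58, -5.84 and -4.62, and in Irf2_AhcKO replicates 1 to 4 -2.48, -1.98, -3.49 and -2.53. The probe was well above background on none of the control arrays and on all 4 Irf2_AhcKO arrays, and the dimmest Irf2_AhcKO array lay above the brightest control array. In processed intensity, which the scanner software reports in arbitrary units, the controls spanned 3.87 to 9.48 and the Irf2_AhcKO arrays 20.1 to 57.3. The group means were -5.31 ± 0.53 (SD, n = 4) and -2.62 ± 0.63 (SD, n = 4), a log2 difference of 2.69 (SE 0.37). Since no control array measured the transcript, the difference is better put against a floor. Cd274 was 3.80-fold higher in Irf2_AhcKO, against the lowest signal of any probe well above background on each control array. Other probes can lie above that floor without being well above background, so the figure is a guide and not a strict limit. It belongs to the processed signal. With normexp the log2 difference was 0.60, which is smaller than that figure and below those of Sectm1b, Tnfsf10 and Sectm1a. The difference was 3.16 on slide 1 and 2.22 on slide 2, and leaving out single arrays gave 2.50 to 3.03.

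The Cd274 promoter is shown because the groups did not overlap and its upstream bases hold an interferon regulatory factor element. Promoter sequences are those of RefSeq on GRCm38.p6, taken 5′ to 3′ along the gene over the 250 bases before its start site. Motifs were searched on both strands in windows of 300 bases (250 before and 50 after the start). The interferon-stimulated response element core GAAANNGAAA occurs in 3.44% of 32851 such windows, the STAT-bound GAS motif TTCNNNGAA in 8.30%, the NF-κB-like motif GGGNNTTTCC in 1.63%, and the IRF element AANNGAAA, which the ISRE core always contains, in 23.9%. The last was added after the search for the core had been seen. Capitals mark matches, here TTTCGTTT, the IRF element on the opposite strand, which begins at base -175, counted from the start. The window lies at chr19:29367188-29367437 on the + strand.
Cd274: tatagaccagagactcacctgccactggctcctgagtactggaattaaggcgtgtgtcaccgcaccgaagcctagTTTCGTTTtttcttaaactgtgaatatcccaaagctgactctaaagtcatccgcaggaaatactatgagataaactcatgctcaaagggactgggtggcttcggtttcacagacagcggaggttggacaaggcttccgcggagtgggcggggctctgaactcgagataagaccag
A match is a string of letters and not a measured binding site.

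Sectm1a and Sectm1b lie next to each other in the genome and encode secreted and transmembrane proteins, of which mouse Sectm1a is known as a ligand of the T cell receptor GITR and the family as a ligand of CD7. Both were higher on every Irf2_AhcKO array than on any control array. For Sectm1a the control arrays read -3.07, -3.00, -2.54 and -2.98, and the Irf2_AhcKO arrays -1.59, -1.44, -1.29 and -1.26. All 8 were well above background, and the means were -2.90 ± 0.24 and -1.39 ± 0.15 (SD, n = 4 each). The log2 difference of Sectm1a was 1.51 (SE 0.11), a 2.84-fold difference, with 1.52 on slide 1 and 1.49 on slide 2. Among the kept members it had the smallest SE, and with normexp the difference was 0.75.

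Sectm1b read -1.02, -0.09, -0.19 and -0.37 in the controls and 0.83, 1.01, 1.17 and 0.98 in Irf2_AhcKO. Control replicate 1 was the low array, and the Irf2_AhcKO arrays lay close together. Means of -0.42 ± 0.42 and 1.00 ± 0.14 (SD, n = 4 each) gave a log2 difference of 1.42 (SE 0.20), which is 2.67-fold. It was 1.48 on slide 1, 1.35 on slide 2 and 1.14 with normexp. The 2 paralogs are similar in sequence and have 1 probe each, and whether a probe also reads its paralog's transcript was not tested. Cd7, their neighbour on the other side of Sectm1b and the gene of the family's receptor on T cells, showed a difference of -0.02 (SE 0.09, limma adjusted p = 0.935), and its sign turned under some alternatives. The Sectm1b window, at chr11:121063570-121063819 on the - strand, is shown for comparison with Cd274, and its only match is the IRF element TTTCAATT on the opposite strand, beginning at base -204.
Sectm1b: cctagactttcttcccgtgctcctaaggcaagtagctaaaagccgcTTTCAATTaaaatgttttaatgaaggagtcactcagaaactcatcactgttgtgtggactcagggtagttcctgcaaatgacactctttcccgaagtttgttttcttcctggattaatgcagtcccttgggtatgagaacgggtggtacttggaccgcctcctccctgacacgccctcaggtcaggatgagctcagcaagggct
RefSeq's promoter table gave no window for Sectm1a.

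Tnfsf10 was well above background on every array, with processed intensities from 1314 to 1849 in controls and from 2369 to 3478 in Irf2_AhcKO. On the log2 scale the control arrays read 2.55, 3.02, 2.61 and 2.88 and the Irf2_AhcKO arrays 3.64, 3.94, 3.40 and 3.62. Irf2_AhcKO replicate 2 was the highest, and replicate 3 the nearest to the controls. The means were 2.76 ± 0.22 and 3.65 ± 0.22 (SD, n = 4 each), with a log2 difference of 0.88 (SE 0.15), or 1.84-fold. This bright probe hardly depends on the background correction: with normexp the log2 difference was 0.84. It was 1.00 on slide 1 and 0.77 on slide 2. Its window at chr3:27316827-27317076 on the + strand is shown because it holds the IRF element in both orientations close to the start, TTTCACTT from base -53 on the opposite strand and AAAAGAAA from base -30.
Tnfsf10: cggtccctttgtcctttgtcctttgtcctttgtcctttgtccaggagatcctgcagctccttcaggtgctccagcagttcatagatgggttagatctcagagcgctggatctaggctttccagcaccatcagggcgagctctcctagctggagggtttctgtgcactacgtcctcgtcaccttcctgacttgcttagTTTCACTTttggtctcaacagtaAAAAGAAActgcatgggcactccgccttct
None of the other 3 motifs was found in it.

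Cd47 and Pvr, the ligands that phagocytes and NK cells read, showed no separation. Cd47 read 2.68, 2.84, 3.47 and 3.07 in the controls and 3.09, 3.03, 3.27 and 3.28 in Irf2_AhcKO on the probe with the higher mean. The highest array of all 8 was control replicate 3, and the log2 difference was 0.15 (SE 0.12; means 3.02 ± 0.34 and 3.17 ± 0.13, SD, n = 4 each). A second Cd47 probe read 1.26, 1.33, 1.17 and 0.93 against 1.45, 1.54, 1.26 and 1.18, a log2 difference of 0.18. Both probes gave a small positive value with overlapping groups, and the value of the brighter one was 0.09 without control replicate 1 and 0.26 without control replicate 3. Pvr read -3.12, -3.56, -2.65 and -3.20 in the controls and -3.13, -3.67, -2.77 and -3.15 in Irf2_AhcKO. Same-numbered arrays of the groups lay close together, and the log2 difference was -0.05 (SE 0.19; means -3.13 ± 0.37 and -3.18 ± 0.37, SD, n = 4 each). The sign of Pvr is not settled, since it turned to 0.04 and 0.06 without control replicates 1 and 3 and to 0.06 and 0.03 without Irf2_AhcKO replicates 2 and 4.

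The chemokines differed from each other. Cxcl10 read -5.70, -6.54, -3.90 and -6.34 in the controls and -3.85, -3.01, -3.83 and -4.57 in Irf2_AhcKO. It was well above background on 1 of 4 control arrays, replicate 3, and on 3 of 4 Irf2_AhcKO arrays, all but replicate 4. Control replicate 3 lay within the Irf2_AhcKO range, so the groups overlapped. The means were -5.62 ± 1.20 and -3.81 ± 0.64 (SD, n = 4 each) and the log2 difference 1.81 (SE 0.62), with 2.69 on slide 1 and 0.93 on slide 2, sizes that rest on 3 control signals not well above background. Without control replicate 3 it was 2.47, and with normexp 0.25. In processed intensity Cxcl10 spanned 2.44 to 14.8 in controls and 9.58 to 28.1 in Irf2_AhcKO.

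The Cxcl10 window, at chr5:92348890-92349139 on the - strand, is printed because among the 6 members with a window it alone holds the full ISRE core, GAAAGTGAAA from base -213, with the IRF element inside it from base -211.
Cxcl10: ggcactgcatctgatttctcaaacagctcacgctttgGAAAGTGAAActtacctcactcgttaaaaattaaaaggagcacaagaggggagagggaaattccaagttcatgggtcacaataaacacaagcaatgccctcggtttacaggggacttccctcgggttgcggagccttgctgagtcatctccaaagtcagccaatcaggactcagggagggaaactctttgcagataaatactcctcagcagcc
The windows of Cxcl9 and Cd47 held none of the 4 motifs, and no member's window held a match to the GAS or NF-κB-like string searched. The NF-κB-like string GGGNNTTTCC is narrow: the stretches gggaaattcc and ggggacttcc in the Cxcl10 window resemble it but do not match it. The lack of a match says only that the exact strings searched are not in these windows, and related sites were not searched.

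**Figure D2:**
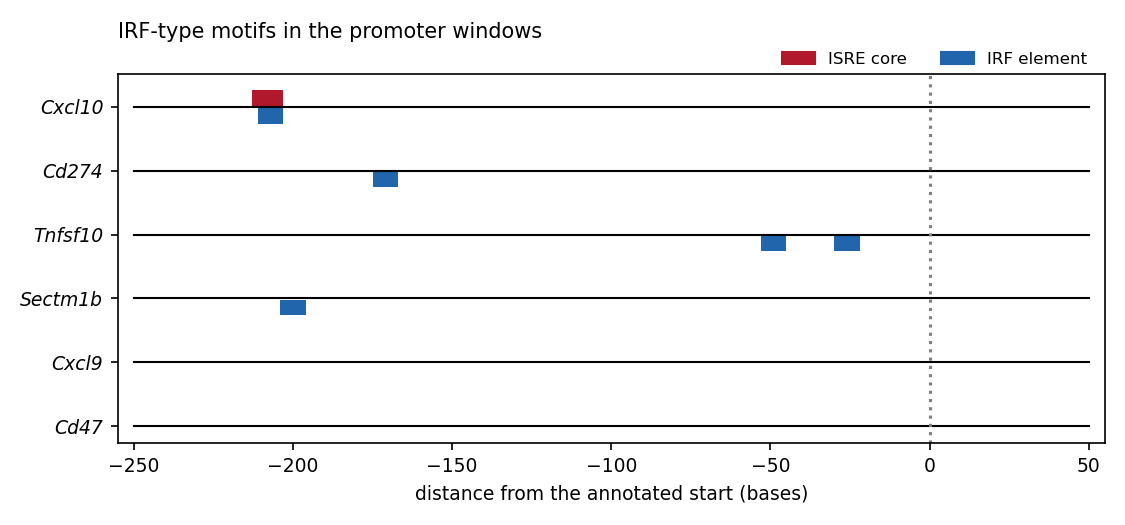
Matches to the ISRE core (red) and the IRF element (blue) in the promoter windows of the 6 members with a RefSeq entry, by distance from the start site in bases (horizontal axis). Cd274, Sectm1b, Tnfsf10 and Cxcl10 hold an IRF element (4 of 6), Cxcl10 holds the ISRE core, and Cxcl9 and Cd47 hold neither.

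Cxcl9 was measured by 1 of its 2 probes, the other being on no array well above background. The measured probe read -1.27, -0.48, -0.93 and -0.64 in controls and -0.56, -0.20, -0.81 and -0.66 in Irf2_AhcKO. Control replicates 1 and 3 lay below every Irf2_AhcKO array and Irf2_AhcKO replicate 2 above every control, while the others overlapped. The log2 difference was 0.27 (SE 0.20; means -0.83 ± 0.35 and -0.56 ± 0.26, SD, n = 4 each), at 0.49 on slide 1 and 0.05 on slide 2, and it came down to 0.07 without control replicate 1. Ido1, which starts the breakdown of tryptophan to kynurenine, was well above background only on control replicate 3 and Irf2_AhcKO replicate 2. It read -6.68, -5.21, -3.03 and -6.15 in controls and -5.47, -3.94, -4.99 and -4.43 in Irf2_AhcKO. The highest array was a control, the groups overlapped, and no fold is given for Ido1.

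**Figure D3:**
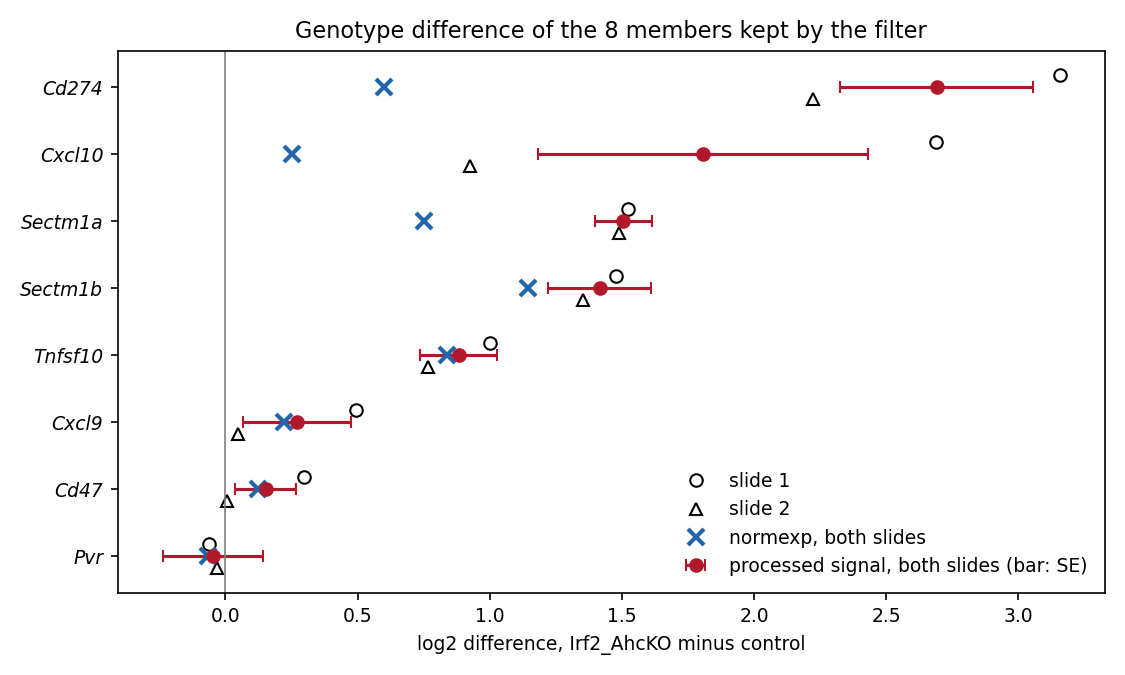
Log2 difference, Irf2_AhcKO minus control, for each member kept by the filter (points, with SE), beside its value on slide 1 and on slide 2 and with normexp background correction (crosses). Values run from -0.05 in Pvr to 2.69 in Cd274, and normexp brings Cd274 to 0.60 and Cxcl10 to 0.25 while Tnfsf10 stays at 0.84.

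The difference was larger on slide 1 than on slide 2 in 7 of the 8 kept members, all but Pvr, and in 48.6% of all features. Nothing is read from that count, since several of the gaps were small against their SE. The interaction of genotype and slide, a contrast on which the members had not been chosen, was past the threshold for none of them. From slide 1 to slide 2 the difference of Cxcl10 changed by -1.77 (SE 1.14), that of Cd274 by -0.93 (SE 0.69) and that of Sectm1a by -0.04 (SE 0.23), and the adjusted limma p was 0.9995 for each. Over all features limma passed 0 interactions after adjustment (0%), and 1091 (4.29%) had an unadjusted p below 0.05, none of them a member. Irf2_AhcKO replicate 2, on slide 1, was the highest Irf2_AhcKO array for Cd274, Tnfsf10, Cxcl9 and Cxcl10. For Sectm1a and Sectm1b it was not, and their highest arrays were on slide 2.

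The slides themselves differed in 35.5% of all features (limma adjusted p below 0.05), and among the 8 members in Cd47 alone. Cd47 was 0.36 log2 units higher on slide 2 (SE 0.12; adjusted p = 0.0477 by limma). Its other probe went the other way, at -0.26. The call was lost when any single array was left out, and with the mean of both probes the slide difference was 0.05 (limma adjusted p = 0.710). Over all alternatives the adjusted p ran from 0.0174 to that value. Sectm1a was higher on slide 2 by 0.26 (limma adjusted p = 0.103) and Pvr by 0.43 (adjusted p = 0.123), neither past the threshold. For the remaining members the slide difference lay between -0.31 (Cd274) and 0.22 (Sectm1b), with adjusted p from 0.416 to 0.901.

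The other genes of these pathways were taken as 9 lists of 165 genes, of which 106 were measured. None of the 106 passed limma's adjusted threshold for Irf2_AhcKO against control, a threshold that 0.0984% of all features passed (25 of 25403), 14 of them higher (0.0551%) and 11 lower (0.0433%). With the replicate number as a block, limma passed 0 features (3292 at an unadjusted p below 0.05). Without adjustment 14 of the 106 were higher (13.2%) and 4 lower, where 5.98% of all features were higher and 5.74% lower. The median log2 difference over the 106 was 0.05. Groups did not overlap in 2 that were higher, Tnfrsf22 and Stat3, and in 2 that were lower, Nectin1 and Clec2i. Over all features 1.74% were higher in that way, and nothing is read from these counts. Cxcl1, Tnf and Tnfrsf22 were above 1.

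Other T cell co-signalling ligands gave a median of 0.20 over 17 measured of 26 genes, 3 of them higher at an unadjusted limma p below 0.05 and none lower. Lgals9, a ligand of TIM-3, showed a difference of 0.33 (SE 0.10, limma adjusted p = 0.337), Tnfrsf14, the HVEM ligand of BTLA, 0.38 (adjusted p = 0.358), and the butyrophilin-like Btnl4 0.59 (adjusted p = 0.366). Pdcd1lg2, which encodes the other PD-1 ligand and lies beside Cd274, was well above background on 1 Irf2_AhcKO array and no control array. Beside Cd274 on the other side, Plgrkt, a plasminogen receptor, showed a difference of 0.61 (SE 0.10, adjusted p = 0.122). Among 11 measured genes for proteins that stabilise or modify PD-L1 and CD47 on the surface, the median was -0.12, with none higher and 2 lower without adjustment. These were the glycosyltransferase B3gnt3 at -0.35 (adjusted p = 0.330) and the sheddase Adam17 at -0.24 (adjusted p = 0.386). Cmtm6, which keeps PD-L1 on the membrane, had -0.14 (adjusted p = 0.547).

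Tnfsf10's own family held the list gene with the lowest p. Tnfrsf22, a decoy receptor that binds TRAIL without a death signal, read -1.74, -1.02, -1.22 and -1.06 in controls and -0.23, -0.50, -0.12 and -0.13 in Irf2_AhcKO. Its groups did not overlap, its log2 difference was 1.02 (SE 0.16) on the whole set, 1.01 on slide 1 and 1.02 on slide 2, and it missed the threshold (limma adjusted p = 0.110) but passed it with normexp (0.67, adjusted p = 0.0297, where all alternatives spanned adjusted p from 0.0297 to 0.590). The TRAIL death receptor Tnfrsf10b showed a difference of -0.01 (SE 0.19, adjusted p = 0.985). The cytokine Tnf had 1.27 (SE 0.41, adjusted p = 0.344), with overlapping groups and 3 of 4 control arrays well above background. With normexp the difference of Tnf was 0.44. The list's median was 0.14 over 14 measured of 23 genes, 2 higher and none lower without adjustment, and Fas was on no array well above background.

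Among 17 measured of 33 other chemokines the median was 0.02, with 3 higher and none lower without adjustment. Cxcl1, which attracts neutrophils, read -3.08, -3.21, -1.43 and -4.46 in controls and -1.28, -0.59, -1.70 and -1.77 in Irf2_AhcKO, and as in Cxcl10 control replicate 3 was the high control. Its log2 difference was 1.71 (SE 0.61, limma adjusted p = 0.375) and 0.77 with normexp. Ccl28 had 0.35 (SE 0.10, adjusted p = 0.312) and Cxcl16, which is made as a membrane protein, 0.52 (SE 0.17, adjusted p = 0.345). Ccl25, the small intestinal chemokine for CCR9-bearing cells, had -0.15 (adjusted p = 0.444).

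Nectins and nectin-like proteins, the relatives of Pvr, had a median of -0.07 over 5 measured of 9 genes, with none past an unadjusted p below 0.05. Nectin3 had -0.22 (limma adjusted p = 0.430) with overlapping groups. Nectin1 had -0.30 (adjusted p = 0.481) with groups that did not overlap. NK cell receptor ligands had a median of 0.08 over 8 measured of 16, with 1 higher and 1 lower without adjustment. These were Clec2e at 0.30 (limma adjusted p = 0.336) and Clec2i at -0.36 (adjusted p = 0.295). The groups of Clec2i did not overlap, and with normexp its difference was -0.03. Clec2d had 0.61 (adjusted p = 0.444), or 0.26 with normexp. Around Ido1, the tryptophan and kynurenine list had a median of -0.08 over 15 measured of 20 genes, with 1 lower and none higher without adjustment. That gene was Slc7a8, a neutral amino acid transporter, at -0.42 (SE 0.11, adjusted p = 0.276). Ido2 was well above background on 1 array and Tdo2 on none.

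The interferon gamma axis that induces several members had 17 measured of 18 genes, a median of 0.22 and 14 positive values, with 5 higher and none lower without adjustment. Stat3 showed a difference of 0.49 (SE 0.09, limma adjusted p = 0.147) with groups that did not overlap, and with normexp it passed (0.45, adjusted p = 0.0497, within a span from 0.0497 to 0.922 over the alternatives). Irf8 had 0.60 (SE 0.13, adjusted p = 0.202). Irf1 had 0.15 (adjusted p = 0.639) and the receptor genes Ifngr1 and Ifngr2 0.11 and -0.08. Ifng itself was on no array well above background.

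**Figure D4:**
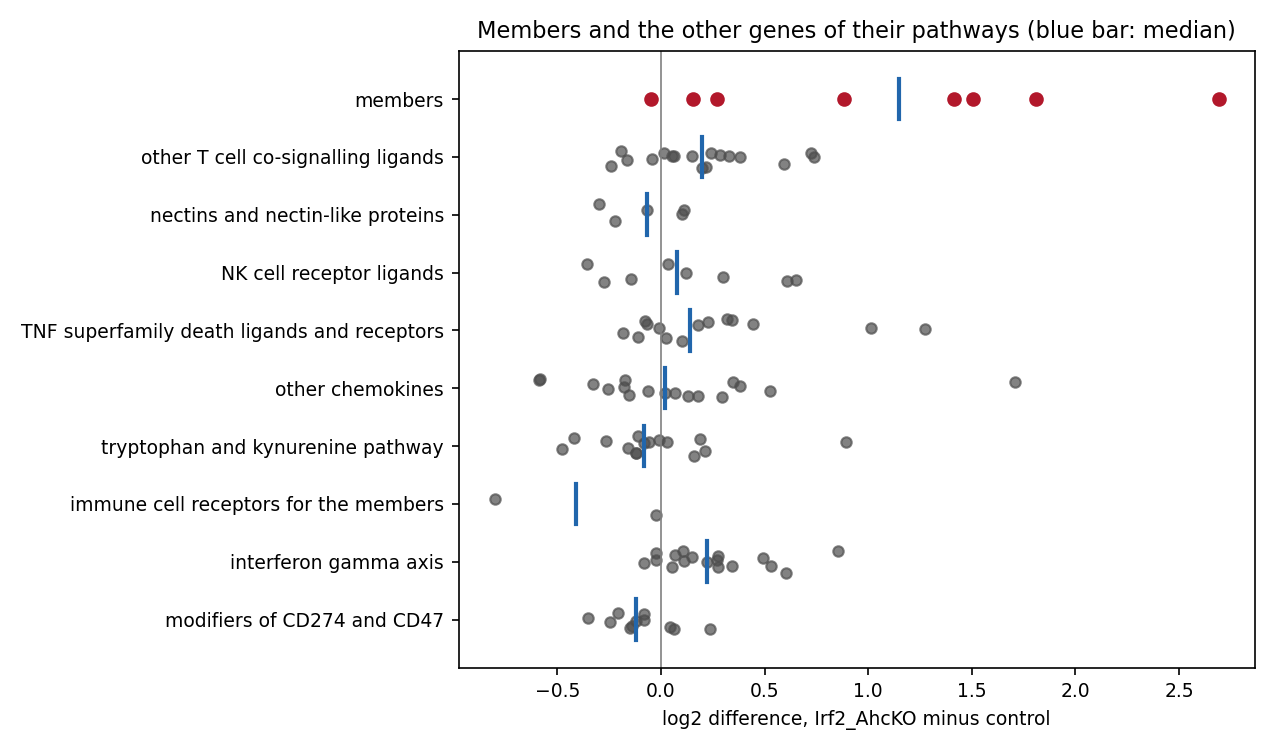
Log2 difference, Irf2_AhcKO minus control (horizontal axis), of the kept members and of each measured gene in the 9 pathway lists (points), with the median of each list as a blue bar. The members have a median of 1.15, or 0.43 with normexp, and were chosen on this difference, so nothing is read from their distance to the lists. The list medians run from -0.41, in the receptor list with only 2 measured genes, to 0.22.

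Immune cells were sought through their own genes, since several members are also made by leukocytes. Of the receptors for the members, Pdcd1, Cd226, Tigit and Cd96 were on no array well above background, and Cxcr3 was so on 1 Irf2_AhcKO array. Only 2 of the 8 receptor genes were measured, Cd7 and Sirpa. Sirpa, the CD47 receptor, showed a difference of -0.80 (SE 0.37, limma adjusted p = 0.447), at -1.45 on slide 1 and -0.16 on slide 2. Of 16 T cell and NK cell markers 9 were measured, 8 of them with a positive difference (49.5% of all features had one) and a median of 0.20, and their summed level, on a linear scale relative to the 75th percentile, ran from 11.0 to 15.4 in controls and from 14.9 to 17.3 in Irf2_AhcKO. Cd3g, Cd2, Klrb1c and Ncr1 of that list were on no array well above background, while Cd3e was on all 8 at a log2 difference of 0.15 (adjusted p = 0.622). Of the 9, 1 was higher at an unadjusted limma p below 0.05 and 0 were lower (5.98% and 5.74% of all features were). That marker was Nkg7, at 0.40 (adjusted p = 0.373), and Lck had 0.36 (adjusted p = 0.431).

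Pan-leukocyte markers had 3 measured of 7, with a median of 0.15 and summed levels from 2.77 to 3.41 in controls and from 3.12 to 3.60 in Irf2_AhcKO. Ptprc, the CD45 gene, showed a difference of 0.04 (limma adjusted p = 0.858), and Coro1a, Laptm5 and Cd53 were on no array well above background. Macrophage, monocyte and dendritic cell markers had 11 measured of 16 with a median of -0.03, and C1qc, Cx3cr1 and Itgax were on no array. Of the 11, 1 was higher and 0 lower at an unadjusted limma p below 0.05. That marker was Fcer1g, at 0.53 (adjusted p = 0.387) and 0.19 with normexp. The summed levels (131 to 267 and 129 to 281) rest largely on 1 bright probe, that of Itgam. Itgam read 7.85, 7.92, 6.67 and 6.62 in controls and was 1.27 log2 units lower on slide 2. B cell and plasma cell markers had 5 measured of 7 with a median of 0.03 (0.454 to 0.672 and 0.522 to 0.812), Ms4a1 and Jchain being on no array. Of the 5, 1 was higher and 0 lower at an unadjusted limma p below 0.05. That marker was Cd79b, at 1.33 (SE 0.28, adjusted p = 0.190) and 0.22 with normexp. Its groups did not overlap, as in 1.74% of all features. The Cd79b probe was well above background on 2 control arrays and 4 Irf2_AhcKO arrays. The part of T cell, NK cell and other leukocyte RNA in the members' differences was not tested.

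Markers of other epithelial cells were examined in the same way. Enterocyte markers had a median of -0.78 over 8 measured of 8 genes, 6 of them lower at an unadjusted limma p below 0.05 (5.74% of all features were) and none past adjustment. Their summed levels ran from 90.5 to 1475 in controls against 65.6 to 81.9 in Irf2_AhcKO. The highest control was the array with the high Sis signal, and Sis alone makes up most of that sum. In 3 of the 8 every Irf2_AhcKO array lay below every control array. They were Fabp2 at -0.50 (limma adjusted p = 0.122), Fabp1 at -0.59 (adjusted p = 0.319) and Alpi at -0.79 (adjusted p = 0.311). Anpep, the aminopeptidase N gene, lay the other way at 0.33 (SE 0.15, limma adjusted p = 0.436). Its Irf2_AhcKO arrays all lay above its control arrays, as in 1.74% of all features. Secretory and tuft cell markers had a median of 0.42 over 8 measured of 9, with summed levels from 40.9 to 64.6 and from 41.3 to 89.6. Without adjustment 4 were higher and 1 lower (Muc2, -0.30), and none passed adjustment. The 4 higher were Trpm5 (0.75), Chga (0.72), Dclk1 (0.68) and Mmp7 (0.52), where 5.98% of all features were higher. Groups did not overlap in Trpm5 and Chga. Endothelial and mesenchymal markers had a median of -0.02 over 5 measured of 9 (5.13 to 6.44 and 5.30 to 5.70), and Cdh5, Col1a1, Dcn and Pdgfra were on no array. The part of enterocyte and secretory cell RNA in the members' differences was not tested.

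Genes beside the members were measured in 19 of 29 cases, and their log2 differences lay between -0.62 and 0.61, with 8 of 19 above 0 (49.5% of all features were) and none past limma's adjusted threshold. Fndc3b, near Tnfsf10, had -0.62 (limma adjusted p = 0.122) and Scarb2, near Cxcl11, -0.61 (adjusted p = 0.135), and with Plgrkt these were the 3 at an unadjusted p below 0.05, as 11.7% of all features were. Between Cxcl9 and Cxcl10 lies Art3, with 0.18 (adjusted p = 0.659).

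The features most like each member were found as those with the smallest mean absolute log2 distance over the 8 arrays, each feature being centred on its own mean per slide. Centred this way, the distances follow largely the difference between the groups on which the members were chosen, and for Cd274 and Cxcl10 they include control signals not well above background, so they are a description only. For Cd274 these were Ifit1bl1 (distance 0.22), Acsm5 (0.40) and Ifit2 (0.42), against a median distance of 1.36 over all features with a symbol. Sectm1a was nearest to Pla2g2e (0.17), its paralog Sectm1b (0.17) and Il1rn (0.18), and Sectm1b to 2210407C18Rik (0.12), Il1rn (0.16) and Asb13 (0.16). Il1rn, the gene of the interleukin-1 receptor antagonist, stood near both paralogs. Tnfsf10 was nearest to Uba7 (0.07), which encodes the ISG15-activating enzyme, Fez2 (0.07) and Arfgef3 (0.08). Cxcl10 was nearest to Cxcl1 (0.31), followed by 9030625G05Rik (0.55) and Artn (0.56). For the members with no gap between groups, the nearest were Ccnl1, Ppp2r5e and Sqstm1 (Cd47), Vgll4, Abhd3 and Spast (Pvr), and AW551984, Pde2a and Lrrc28 (Cxcl9), all within 0.07.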

How the data were processed

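RNA of 4 control and 4 Irf2_AhcKO samples was amplified (Ovation Pico WTA) before Cy3 labelling, per the labels' protocols. The deposited scanner files hold the intensity of 62976 spots per array, 59305 of them not controls, made with Agilent Feature Extraction 11.5.1.1 per the submitters' processing notes, and the processed intensity is background-subtracted per the file headers. The authors' deposited table holds the same intensity times 1 constant per array (6.41 to 6.90), linear and not centred, with column medians from 207 to 246. What set the constant is not stated there.

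Of 55681 probes, 28331 took a symbol (21368 symbols) from a RefSeq table of GRCm38.p6 by accession, none several and 27350 none. The grid file names mm9, so probes and genes are given without coordinates, and only the promoter windows carry those of the RefSeq table. The log2 processed intensity minus the array's 75th percentile over non-control spots was averaged over the spots of a probe without outlier spots (141 to 214 per array). Probes well above background on at least 4 of 8 arrays were kept, and the brightest kept probe stood for a gene, which left 25403 features (15110 with a symbol). Tests used limma 3.58.1 (lmFit, eBayes, two-sided) under R 4.3.3, a slide term in the model, and a threshold of 0.05 on the Benjamini-Hochberg adjusted p over all features. The precision is limited by the number of arrays.

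The members and the gene lists were chosen with earlier results of these data known. Named genes are the members, the up to 3 genes of lowest unadjusted p in each pathway list, markers that define a cell type, the nearest 3 features in likeness and the members' neighbours. Other genes are named after their values were seen. The single value of 1 gene that the rule takes is not reported here, while the list counts include it.

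Arrays correlated at 0.967 to 0.989. Same-numbered arrays of both groups moved together around the group means (r over features 0.46, 0.49, 0.52 and 0.53), which counts the numbers as pairs. With slide means removed r was 0.05 for replicates 1 and 2 and 0.21 for 3 and 4. Alternatives were normexp background correction (offset 50, on median signals, since the files used here give no mean signal), quantile normalization, centring on the median, no slide term, the replicate block, each slide alone, other filters and probe rules, the authors' deposited table, and leaving out each array.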

Additional observations from a re-analysis of the deposited data

Results flagged for a closer look

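Among 74 groups of 4 arrays tested for an array far from the others, 22 of them of member probes, 4 stood out and none was of a member. Chance gives about 1 in 20 such groups. Each had a gap to its nearest neighbour that, as a share of the group's range, was above Dixon's critical value. Nectin1 read -0.49 in control replicate 3, against -0.66 to -0.65 on the other controls. Clec2i, a ligand of NK cell receptors, read -3.54 in Irf2_AhcKO replicate 4, against -3.81 to -3.79. The membrane-bound chemokine Cxcl16 read -2.02 in control replicate 2, against -1.23 to -1.14, and the sheddase Adam17 read -0.15 in the same array, against 0.09 to 0.13.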

How the results depend on the processing

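Over 19 alternatives the members' log2 differences gave 150 values, of which 143 kept their sign and moved by less than 1 SD of the replicates. Some of the 150 could not differ. In this balanced design the fits without the slide term and with the replicate block return the same difference. So do the other filters and probe rules for a gene with 1 kept probe, and the deposited table shifts every member alike. With normexp Cd274 came to 0.60, Sectm1a to 0.75 and Cxcl10 to 0.25. Pvr, at -0.05, spanned -0.16 to 0.064 without single arrays. Cd7, at -0.02, spanned -0.063 to 0.048 without single arrays and turned to 0.054 within slide 1 and 0.0069 in the authors' deposited table. For the 26 named pathway genes, 485 of 491 values kept their direction and side of the threshold, again with directions that some settings could not change. Tnfrsf22 (0.67) and Stat3 (0.45) passed the threshold with normexp. The cause of these changes was not tested.

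The 25 features past limma's threshold between the genotypes became 133 with normexp, 7 with no filter on dim probes, 46 with probes well above background on all 8 arrays, and 0 within slide 1 or slide 2 alone (2538 and 1336 at an unadjusted limma p below 0.05). With the replicate block, which pairs same-numbered arrays, 0 passed (3292 unadjusted), and the block moves no member's difference. Leaving out 1 array gave 0 to 25. Centring on the median turned 14 higher and 11 lower into 9 and 12. For the slides, 9014 features passed, 3046 higher and 5968 lower on slide 2 (5055 and 4073 with centring on the median), and 7149 to 7824 without single arrays. For genotype by slide, 0 became 26 without control replicate 2, 3 without control replicate 4, 1 without Irf2_AhcKO replicate 3 and 0 without each of the others. No setting moved the median of all features beyond 0.03. Signals near background limit Cd274, Cxcl10 and Ido1.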

Other observations

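Of the 52 pathway genes that the filter removed, 34 were well above background on no array. On at least 2 Irf2_AhcKO arrays and no control array there were 4, named after their values were seen. Tnfrsf11b, whose product osteoprotegerin is a soluble decoy receptor that binds TRAIL, was so on 3 of 4 Irf2_AhcKO arrays. Tnfsf14, the ligand LIGHT of the receptor encoded by Tnfrsf14, the chemokine Cxcl14 and Kynu, an enzyme of kynurenine breakdown, were so on 2 of 4 each. On at least 2 control arrays and no Irf2_AhcKO array there were 0. Cadm3, Clec2f and Sirpb1a were well above background on 2 control arrays and 1 Irf2_AhcKO array. On a single array there were 6 genes in a control (Tnfsf18, Cadm2, H60b, Tnfrsf23, Ccl8 and Ido2) and 3 in Irf2_AhcKO (Pdcd1lg2, Lta and Cxcr3). Over all 19393 probes removed, 1.54% were on at least 2 Irf2_AhcKO arrays and no control array, and 2.82% the reverse. Those shares count single probes, with or without a symbol, while each gene was counted by its best detected probe in each group. The shares are therefore not directly comparable with the counts of genes. No fold is given for these genes, and the difference in detection was not tested.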
